A study of Arabidopsis thaliana with 42 samples.

Results

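Small RNA sequences of 22 nt were followed in Arabidopsis thaliana leaves from day 4 to day 28 after the leaf emerged. A member was any entry of the 2 deposited small RNA count tables that was 22 letters long, held no U and was listed in both tables, with a sequence and its reverse complement counted once. There were 3783 such members among 53340 sequences of all lengths listed in both tables, against 4803 of 21 nt, 3436 of 23 nt and 5625 of 24 nt. The study sampled leaves of this plant at 7 ages for small RNA (days 4, 8, 12, 16, 20, 24 and 28) and at more ages for total RNA, each in 2 independent biological sets. The plants were wild type, the labels name no treatment, strain or leaf position, and all groups differ by age alone as far as the labels go. Here days 4 and 8 are called young, days 12 and 16 mature, and days 24 and 28 old, with 4 libraries in each stage. Levels are given as reads per 1000000 listed reads of 18 to 28 nt (RPM). The libraries held 1667551 to 7386228 such reads, of which 100942 to 549496 were of 22 nt.

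Plant small RNAs are cut from double-stranded RNA by Dicer-like enzymes. DCL1 makes most microRNAs, DCL4 makes 21 nt and DCL2 makes 22 nt small interfering RNAs, and DCL3 makes 24 nt ones that guide DNA methylation. A 22 nt microRNA or interfering RNA loaded in AGO1 can start the copying of its target by RDR6 into secondary small RNAs. Reads of this length can also be fragments of ribosomal RNA, transfer RNA or chloroplast RNA, and length alone does not tell these apart. In the total RNA tables, RBCS1A, a small subunit gene of Rubisco that marks green leaf, had 2663 ± 379 FPKM in young and 557 ± 215 in old leaves (SD, n = 4). LHCB2.1, a light-harvesting gene, was listed at 1685 ± 119 and 502 ± 294 FPKM in the same groups.

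The members were very unequal. The most abundant one, called sequence A, averaged 21955 RPM and made up 31.9% of the 22 nt level averaged over libraries. It was listed in both orientations and stood in a ladder of sequences that all ended at the same base, shown because the most abundant 22 nt member was one rung of it. In general knowledge its letters are those at the 3′ end of a plastid ribosomal RNA, which was not checked against a genome here. Capitals mark the bases that each rung shares with sequence A.
24 nt: ccTAACAGACCGGTAGACTTGAAC
23 nt: cTAACAGACCGGTAGACTTGAAC
sequence A: TAACAGACCGGTAGACTTGAAC
21 nt: AACAGACCGGTAGACTTGAAC
20 nt: ACAGACCGGTAGACTTGAAC
Sequences that rose with age are shown next as listed in the tables, among them the largest rises and the abundant members F and O.
D: acctatacccggccgtcggggc
F: gtcggcgatacgctcctggtct
O: cccagttccgaacccgtcggct
P: tcagcggactgctcgagctgct
Q: ggcagggctagtgactggagtg
T: ggtgtaggataagtgggagctt
AB: ggttaaggaagttggtgacctg
Those that fell most included R, Z, AE and AF, of which AE and AF came from 2 runs of the table that were unusually rich in 22 nt entries.
R: tcgggagaaggggtgcctcctc
Z: gatatctatctctacctctaat
AE: gttccttcttctgtattcttga
AF: gatatatacatagttatccgta
Members that held a whole sequence written with U elsewhere in the tables are shown in the orientation of that entry, because U-lettered entries are the tables' only mark of a class. Capitals mark the bases of the U-lettered entry, and lower case marks extra bases.
B: tTCGGACCAGGCTTCATTCCCC
S: cTCGGACCAGGCTTCATCCCCC
H: TCGCTTGGTGCAGGTCGGGAAc
L: TTGACAGAAGATAGAGAGCACt
V: TCCCAAATGTAGACAAAGCAat
N: TGAAGCTGCCAGCATGATCTGG

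The share of 18 to 28 nt reads that were 22 nt long was lower in every old library, did not pass the adjusted test, and depended on sequence A. The share was 7.90%, 7.69%, 7.90%, 7.01%, 5.91%, 5.96% and 5.82% from day 4 to day 28 in set 1, and 7.44%, 7.12%, 7.15%, 7.37%, 6.5%, 6.45% and 6.05% in set 2. Every library of days 20, 24 and 28 lay below every earlier library. Young leaves had 7.54 ± 0.34% and old leaves 6.07 ± 0.27% (SD, n = 4), a difference of -1.47 percentage points with a two-sided exact permutation p of 0.0286. That is the smallest p that 4 against 4 libraries allow, and it became 0.0643 after Benjamini-Hochberg adjustment over the 9 tests of shares and ratios, so the difference did not pass. At that smallest p, passing depends on how many of the 9 tests also reach it. Mature leaves, at 7.36 ± 0.39%, differed from young ones by -0.18 points (exact permutation p = 0.514). Without sequence A the direction turned: the share was 4.50 ± 0.47% in young and 5.19 ± 0.38% in old leaves, a difference of 0.69 points (exact permutation p = 0.0857, adjusted 0.257).

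The ratio of 22 nt to 24 nt reads was also lower in old leaves without passing the adjusted test. On the log2 scale it was 0.72 ± 0.33 in young, 0.48 ± 0.15 in mature and -0.04 ± 0.16 in old leaves, and the libraries of young and old leaves did not overlap (exact permutation p = 0.0286, adjusted 0.0643). Without sequence A that difference shrank from -0.76 to -0.21. The log2 ratio to 21 nt reads went from -1.86 ± 0.15 in young to -2.15 ± 0.27 in old leaves, with overlapping libraries (exact permutation p = 0.171), and its difference changed from -0.29 to 0.26 without sequence A.

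**Figure D1:**
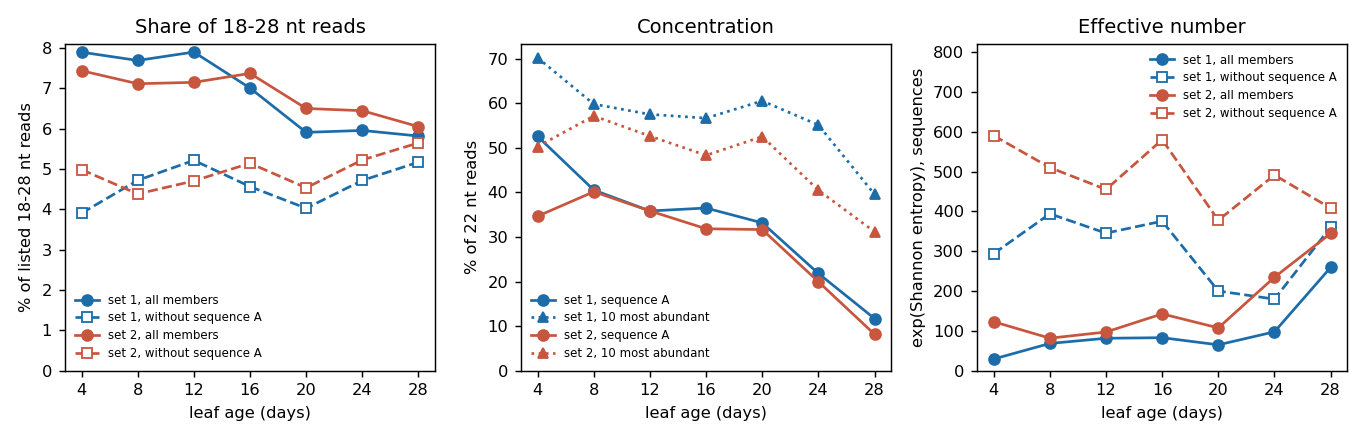
Lines join the 7 small RNA libraries of each set, set 1 in blue and set 2 in red, by leaf age in days. The left panel plots 22 nt reads as a percentage of listed 18 to 28 nt reads, the middle panel the percentage of 22 nt reads in sequence A and in the 10 most abundant members, and the right panel the effective number of sequences. Sequence A falls from 52.6% and 34.7% of 22 nt reads at day 4 to 11.7% and 8.19% at day 28, and the effective number of all members is highest at day 28 in both sets.

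Sequence A fell with age in both sets. In set 1 it had 41532 RPM at day 4, then 31191, 28329, 25594, 19615, 13010 and 6824 RPM. In set 2 it began at 25803 RPM, with 28584, 25645, 23490, 20601, 12886 and 4274 RPM after that. All 4 old libraries were below all young and mature ones. Old minus young was -1.90 on the log2 scale (SE 0.35), with an adjusted p of 0.0022 by edgeR's quasi-likelihood test with Benjamini-Hochberg adjustment over all 46841 sequences tested, and old minus mature was -1.61 (adjusted p = 0.014). Mature and young leaves differed by -0.29 (SE 0.34), which did not pass the test. The other rungs of the ladder had the same order of stages between young and old. The 23 nt rung averaged 164796 RPM in young and 47805 RPM in old leaves, the 21 nt rung 34048 and 10919 RPM, and the 20 nt rung 18813 and 6072 RPM. Sequence A was not the main length of its ladder: the 23 nt rung was the most abundant and the 21 nt rung slightly exceeded it.

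Reads were concentrated in few members, and the share of the top members was lower in old leaves only with sequence A counted. Only 7 members averaged 1000 RPM or more, and they held 47.8% of the 22 nt level, while 47 between 100 and 1000 RPM held 18.1% and 565 between 10 and 100 RPM held 21%. A further 2674 members averaged 1 to 10 RPM, and 490 were under 1 RPM. The median member averaged 2.54 RPM. The 10 most abundant members of a library took 59.4 ± 8.3% of its 22 nt reads in young, 53.8 ± 4.2% in mature and 41.6 ± 10.0% in old leaves. Without sequence A the 10 most abundant took 31.8%, 30.3% and 32.6%. The number of members that together made up 50% of the reads was 1 at day 4 of set 1 and 10 at day 4 of set 2, against 27 and 43 at day 28.

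The effective number of sequences, the exponential of the Shannon entropy, is the number of equally common sequences that would be as diverse. It was 75.8 ± 38.5 in young, 101 ± 29 in mature and 234 ± 102 in old leaves. In set 1 it ran 29.6, 68.6, 81.6, 83.1, 65.1, 97.8 and 259 from day 4 to day 28, and in set 2 it ran 123, 81.8, 97.3, 143, 108, 235 and 345. Day 28 was highest in both sets, and days 4 to 20 stayed at or below 143. Without sequence A the order of the stages turned, with 447 ± 130 in young, 439 ± 105 in mature and 360 ± 132 in old leaves, all overlapping. Thinning each library to the same 100942 reads of 22 nt gave an expected 3325 ± 143 members seen in young, 3385 ± 62 in mature and 3222 ± 133 in old leaves. At equal depth the libraries of the 3 stages overlapped in the number of members seen. These measures describe the libraries and were not tested.

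The neighbouring lengths did not share one pattern. The effective number of 21 nt sequences was 25.8 ± 3.3 in young and 30.6 ± 11.2 in old leaves. For 23 nt it was 5.09 ± 2.38 and 47.9 ± 37.3, with 82.1 ± 5.0% of the young reads in a single sequence, the rung above sequence A. For 24 nt it was highest of these lengths and went the other way, from 585 ± 172 in young to 301 ± 100 in old leaves. Without the most abundant sequence of each length, the effective number went from 54.9 ± 18.5 to 138 ± 40 for 21 nt, from 471 ± 234 to 192 ± 76 for 23 nt and from 1101 ± 299 to 326 ± 111 for 24 nt, so that the direction for 23 nt turned, as it did for 22 nt.

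Among members with at least 10 counts in 2 libraries, 3236 in number with 547 left out, changes with age went both ways. From young to old leaves 325 members rose, 10.0% of those tested, against 13.4% of sequences of all lengths. In the other direction 300 members fell, 9.27%, against 5.76% of all sequences. The median log2 change of members was -0.41, and that of all sequences 0.00. From young to mature leaves 56 members rose, 1.73% against a background of 2.02%, and 13 fell, 0.402% against 0.222%. From mature to old leaves 164 rose, 5.07% against 8.33%, and 114 fell, 3.52% against 2.16%. An F test over the 7 days called 252 members, 7.79%, against 9.08% of all sequences. Risers were a smaller share of 22 nt members than of all sequences, and fallers a larger share, in both comparisons with old leaves. This was not particular to 22 nt: from young to old leaves 12.6% of 21 nt sequences rose and 11.2% fell, 11.7% and 6.15% of 23 nt ones, and 8.44% and 11.9% of 24 nt ones, with median log2 changes of -0.35, -0.29 and -0.49. Single libraries moved these counts. The number that fell from young to old leaves was 156, 158, 192, 193 and 194 without set 1 day 24, set 2 day 28, set 2 day 24, set 1 day 8 and set 1 day 28, while the number that rose stayed between 231 and 340. From young to mature leaves, leaving out any library of days 8, 12 or 16 or set 1 day 4 left 14 to 36 that rose, and 0 to 8 fell without any one library of set 1 other than day 20 or of set 2 other than days 4 and 20, against 21 without set 2 day 4. From mature to old leaves, 33 to 98 rose without any one library of days 12, 16 or 24 or set 2 day 28, and 8 to 46 fell without any one mature or old library. The F test called 161, 155, 165 and 122 without set 1 day 24, set 1 day 28, set 2 day 24 and set 2 day 28.

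The split depended on scaling. With TMM factors, 308 members were higher and 472 lower in old than in young leaves. With DESeq2 the counts were 316 and 524, and with library sizes from reads of all lengths 149 and 1744. TMM moved the median log2 change of all sequences to -0.20, and library sizes from all lengths moved it to -1.28. Reads of 18 to 28 nt made up 83.8 ± 12.8% of the listed reads of all lengths in young and 33.3 ± 6.5% in old leaves, so the choice of library size shifts every level between these ages. Fewer cells of a type and less of an RNA per cell cannot be told apart in whole leaves.

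Members were most often highest at an end of the time course. Of the 3236 tested, 886 had their highest mean level at day 4 and 755 at day 28, while 65 did so at day 20. In both sets separately, 386 members were highest at day 28 and 210 at day 4, compared with 10 at day 20. No such counts are given for all sequences or for other lengths, so the pattern is not shown to be particular to these members. How far the count filter and the depth of the libraries shape these counts was not tested.

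Among the sequences that rose, D had the highest level in old leaves, and AB and Q had the largest fitted log2 changes. Sequence D was at 21.4, 208, 566, 2193, 3613, 6310 and 2650 RPM in set 1 and 36.1, 216, 891, 1130, 2446, 3408 and 4961 RPM in set 2. The stages did not overlap, and day 24 was highest in set 1 whereas day 28 was highest in set 2. Old minus young was 5.78 on the log2 scale (SE 0.51, edgeR adjusted p = 3.9e-05), and the step from young to mature was already 3.81 (adjusted p = 0.0034). At day 28 of set 2 D was above sequence A.

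Sequence Q was near 0 until day 8 and climbed from day 12 on. It had 1.03, 1.01, 10.7, 167, 411, 468 and 424 RPM in set 1, and 2.30, 1.12, 22.8, 83.5, 249, 328 and 465 RPM in set 2. The log2 change was 8.26 from young to old (SE 0.58, edgeR adjusted p = 2.8e-05). Sequence AB also began near 0, with 0.12 ± 0.16 RPM in young and 67.4 ± 21.9 RPM in old leaves, and had no read in 2 of the 4 young libraries.

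Sequence P rose late instead. Its level was 12.5, 14.8, 40.9, 57.0, 102, 448 and 886 RPM in set 1 and 16.7, 15, 42.6, 63.4, 78, 399 and 1419 RPM in set 2. Days 24 and 28 stood far above all earlier days. Between mature and old leaves it changed by 3.80 (SE 0.36, edgeR adjusted p = 0.00074), and between young and mature leaves by 1.77 (adjusted p = 0.019). The 6 tested members of its overlap group, P itself among them, all rose, where 13.4% of all sequences did. The others share 18 or more bases with P, so they are not independent of it. Sequence AG was later still, at 3.05 and 3.66 RPM on day 20 and 48.8 and 109 RPM on day 28.

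Sequences F and O, both abundant, rose less. Sequence F averaged 343 ± 153 RPM in young, 1256 ± 353 in mature and 2240 ± 1271 in old leaves, a log2 change of 2.68 from young to old (edgeR adjusted p = 0.0011). Its relative without the last base, of 21 nt, was more abundant, with 800 RPM in young and 11941 RPM in old leaves. Sequence O averaged 187 ± 64 RPM in young and 904 ± 433 RPM in old leaves (log2 change 2.19, edgeR adjusted p = 0.0025). With library sizes from all lengths the change of O no longer passed. The remaining large risers, T, U, X, Y, AA and AC, began at 1.08 to 3.26 RPM in young leaves and reached 66.7 to 148 RPM in old leaves.

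Sequences C and U shared 15 bases and lay on opposite sides of 0 in their change with age. Both match a ribosomal RNA of the cytosolic ribosome in general knowledge, again unchecked here, and capitals mark the shared bases.
U: gccgaggGCACGTCTGCCTGGG
C: GCACGTCTGCCTGGGtgtcaca
Sequence U rose from 3.26 ± 1.90 RPM in young to 120 ± 45 RPM in old leaves (log2 change 5.38, SE 0.43, edgeR adjusted p = 2.9e-05). Sequence C, in contrast, was at 3019 ± 1352 RPM in young and 1451 ± 570 RPM in old leaves, and its change of -1.04 (SE 0.39, adjusted p = 0.086) did not pass. It did pass with TMM factors (-1.41), with DESeq2 (-1.48), with library sizes from all lengths (-2.33), in a fit to 18 to 28 nt alone, and without set 1 day 28 (-1.44) or set 2 day 4 (-1.22), always as a fall. The difference between these 2 changes was not tested. In pairs shifted by only 1 base, by comparison, members never passed in opposite directions: of 1728 tested pairs both members rose in 91, both fell in 47, and 1 of the 2 passed in 279. Among members sharing at least 18 bases with a named sequence, opposite calls did occur in the groups of C, Q and A. There 2 rose and 1 fell for C, 2 and 1 for Q, and 1 and 1 for A, while the remaining groups had none.

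**Figure D2:**
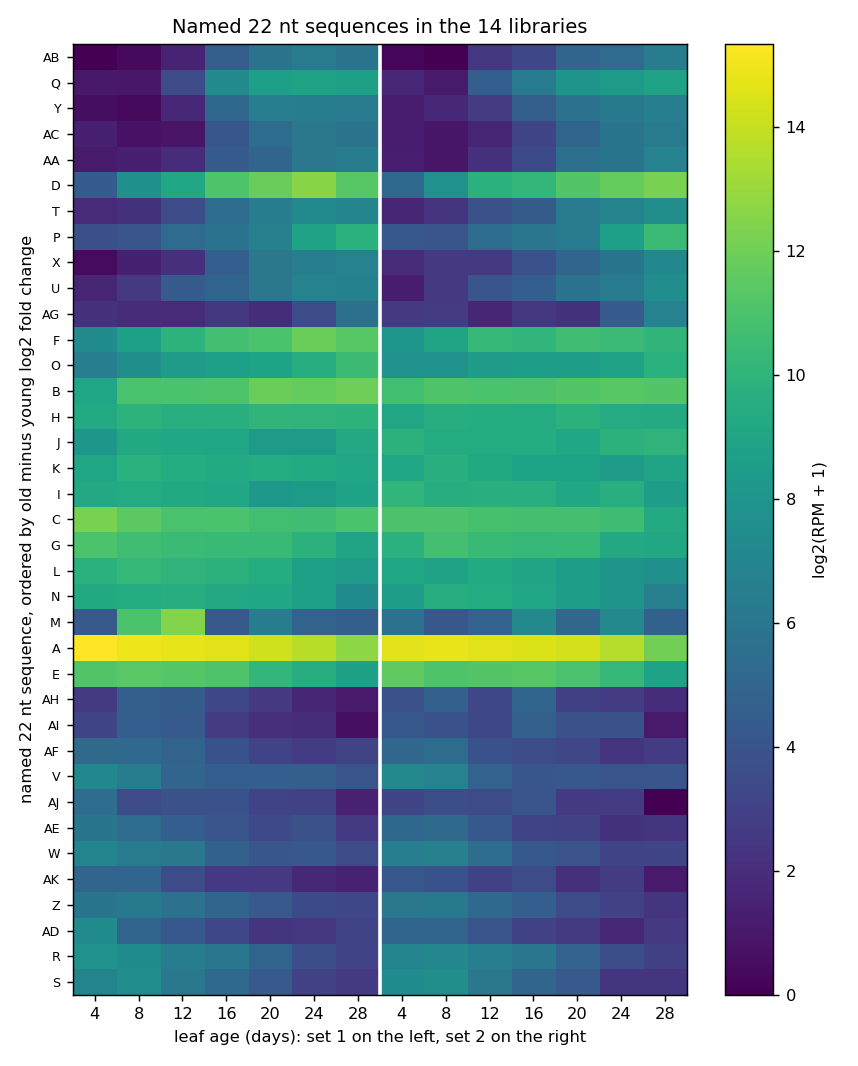
Rows are the 37 named sequences, ordered from the largest rise at the top to the largest fall at the bottom by old minus young log2 fold change, and columns are the 14 libraries by leaf age, set 1 left of the white line and set 2 right of it. Colour gives log2(RPM + 1). Sequence M stands out with 2002 and 5723 RPM at days 8 and 12 of set 1 only.

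Sequence R fell steadily. It had 229, 167, 88.5, 64.4, 29.9, 11.8 and 7.38 RPM in set 1 and 122, 136, 92.3, 65.3, 27.7, 11.8 and 6.6 RPM in set 2, lower at each later age from day 8 on. Its log2 change from young to old was -4.15 (SE 0.38, edgeR adjusted p = 4.3e-05). Sequences W and Z went from 98.5 ± 16.4 and 68.4 ± 6.1 RPM in young to 10.9 ± 4.3 and 7.34 ± 2.43 RPM in old leaves, with log2 changes of -3.23 and -3.28. Sequence AD was at 166 RPM in set 1 at day 4 but at 29.5 to 31.7 RPM in the other young libraries, and at 4.86 ± 2.34 RPM in old ones (log2 change -3.55, edgeR adjusted p = 0.00041). Among abundant members, E fell from 2598 ± 381 to 714 ± 345 RPM (log2 change -1.97, edgeR adjusted p = 0.0016) and stayed at 2427 ± 173 RPM in mature leaves. Sequence G fell from 1567 ± 494 to 654 ± 177 RPM (log2 change -1.26, edgeR adjusted p = 0.026). The call for G was lost when set 1 day 4, 24 or 28, or set 2 day 8 or 24, was left out, with log2 changes of -1.36 to -0.94 and an adjusted p of at most 0.0925. Sequences AH, AI and AJ were named for their fall from mature to old leaves, with log2 changes of -2.72, -2.59 and -2.59 (edgeR adjusted p = 0.013, 0.033 and 0.022). Each of these 3 calls was lost without set 1 day 12, set 1 day 24, set 2 day 16 or set 2 day 28, the calls of AH and AI also without set 1 day 28, those of AI and AJ also without set 2 day 24, and that of AJ also without set 2 day 12. Sequence AK fell from 23.6 ± 9.5 RPM in young to 2.67 ± 1.84 RPM in old leaves (log2 change -3.23, edgeR adjusted p = 0.0012).

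Of the other members named for their level, B, C, H, I, J, K and M did not pass in any comparison of stages with the main scaling. Sequence I passed as a fall with DESeq2 (-1.01), and I, K, H and J did so with library sizes from all lengths (-1.95, -1.76, -1.14 and -1.15, with edgeR adjusted p of at most 0.0404). For H and J that turned the direction. Sequence H had 735 ± 175, 764 ± 69 and 833 ± 173 RPM in young, mature and old leaves when scaled to 18 to 28 nt reads.

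Members that matched a U-lettered entry were few, and more of them fell than rose with age. Both tables listed 109 sequences written with U, 81 of them of 21 nt and 15 of 22 nt. The notation is the usual one of microRNA catalogues, but the tables name none of them. In all, 51 members were identical to one, held a shorter one or lay inside a longer one, and they made up 7.52% of the 22 nt level. Of the 41 that were tested, 14 fell and 4 rose from young to old leaves, with a median log2 change of -0.83. Some of these members hold the same U-lettered entry and share most of their bases, so they are not independent. Over all sequences 5.76% fell and 13.4% rose, and over tested 22 nt members 9.27% and 10.0%. With library sizes from all lengths the counts were 28 and 2. Without set 2 day 24 or set 1 day 24 the number that fell was 9 or 8, and without set 2 day 4 the number that rose was 7. For 21 of the 51 the tables listed the reverse complement of the U-lettered entry, so the listed orientation is not that of the RNA, and first bases are not described here.

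Those that fell included S, V, L and N. The family names that follow come from general knowledge of plant microRNAs and not from the files. Sequence S, which holds the miR165 sequence with 1 extra base at its 5′ end, had 122, 180, 70.5, 37.9, 18.9, 6.88 and 5.11 RPM in set 1 and 174, 189, 68.2, 31.7, 18.6, 4.18 and 4.20 RPM in set 2. Its libraries of young, mature and old leaves did not overlap (log2 change from young to old -5.03, SE 0.40, edgeR adjusted p = 2.9e-05). Sequence B holds the closely related miR166 sequence with 1 extra 5′ base. It was at 539, 1921, 2050, 2228, 3883, 3426 and 4036 RPM in set 1 and 1659, 2190, 2006, 2128, 2454, 2632 and 2401 RPM in set 2. Its change of 1.05 (SE 0.42, edgeR adjusted p = 0.11) did not pass. It passed without set 2 day 4, where it was 1.61 (edgeR adjusted p = 0.0098), with DESeq2 (0.86, adjusted p = 0.037) and in an edgeR fit to 18 to 28 nt alone (adjusted p = 0.029), and with library sizes from all lengths it was -0.23. In plants both families act on HD-ZIP III transcripts, which set the upper side of the leaf.

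Sequence V, which holds the miR158 sequence with 2 extra 3′ bases, fell early, from 122 ± 28 RPM in young to 24.4 ± 6.4 RPM in mature and 17.2 ± 4.6 RPM in old leaves. The step from young to mature was -2.34 (edgeR adjusted p = 0.0065), and without set 1 day 16 or set 2 day 12 it lost its call (adjusted p at most 0.0697). The log2 change of V was -2.83 from young to old (edgeR adjusted p = 0.0002), and old and mature leaves differed by -0.49 (adjusted p = 0.39). Sequence L holds the miR157 sequence, of a family that restrains SPL transcription factors, with 1 extra 3′ base. It was at 767 ± 322 RPM in young, 766 ± 231 in mature and 296 ± 91 RPM in old leaves (log2 change from young to old -1.34, edgeR adjusted p = 0.011). Leaving out set 1 day 8 or day 24 lost that call, with changes of -1.17 and -1.31. Sequence N, of the miR167 family that targets auxin response factors, is identical to a 22 nt U-lettered entry. Its levels were 647, 697, 746, 613, 567, 421 and 166 RPM in set 1 and 377, 756, 692, 526, 377, 246 and 101 RPM in set 2, and it fell by 1.56 on the log2 scale (SE 0.34, edgeR adjusted p = 0.006). The identical U-lettered entry fell less, from 714 ± 194 RPM in young to 395 ± 148 RPM in old leaves, and was not tested. Sequence H holds the miR168 sequence, whose target is AGO1 itself, and its levels are given above.

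**Figure D3:**
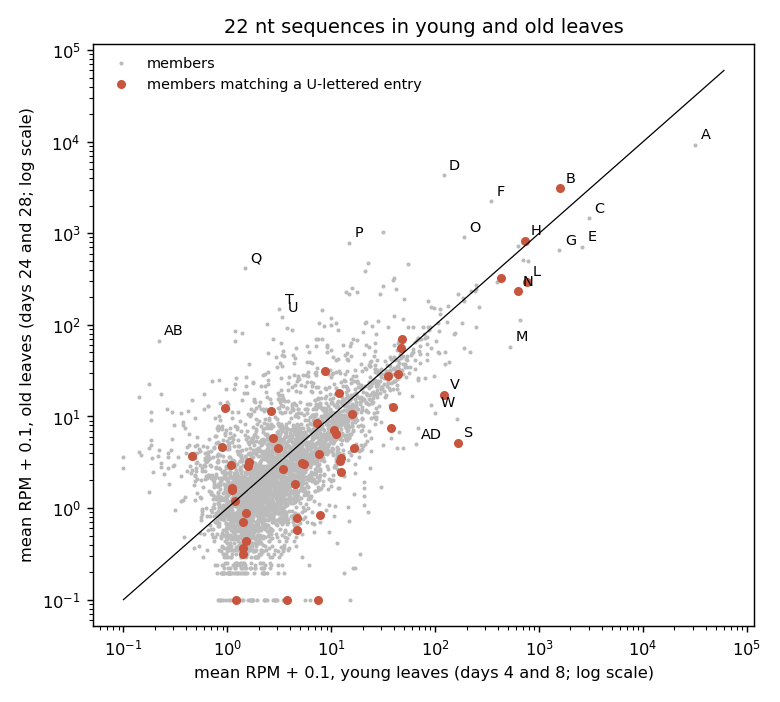
Each grey point is a 22 nt member, with its mean RPM plus 0.1 in the 4 young libraries on the x axis and in the 4 old libraries on the y axis, both on log scales. Red points are the 51 members that match a U-lettered entry, letters mark named sequences, and the line marks equal levels. Sequences D, P and Q lie far above the line, whereas A, E and S lie below it.

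Of the 15 U-lettered entries of 22 nt, 11 were identical to a member. The 4 most abundant after N are shown with their seed, bases 2 to 8, in capitals, because microRNAs of this length are the known triggers of secondary small RNAs.
miR472: uUUUUCCUacuccgcccauacc
miR393: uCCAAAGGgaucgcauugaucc
miR173: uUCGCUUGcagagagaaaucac
miR840: aCACUGAAggaccuaaacuaac
No 2 of these 4 shared a seed. The member with the miR173 letters, the trigger of the TAS1 and TAS2 secondary RNAs, was at 43.5 ± 26.8 RPM in young and 29 ± 9.1 RPM in old leaves (log2 change -0.53, SE 0.39), and did not pass. The one with the miR393 letters, whose targets are auxin receptors, was at 35.1 ± 18.2 and 27.7 ± 13.0 RPM (log2 change -0.32, SE 0.38). The identical U-lettered entry went the other way, at 38.8 ± 18.6 RPM in young and 51.4 ± 14.9 RPM in old leaves, and was not tested. The one with the miR472 letters, whose targets are disease resistance genes, was at 46.7 ± 21.3 and 55.5 ± 21.9 RPM (log2 change 0.21, SE 0.36). Of the 11 identical members, 10 were tested and 3 fell from young to old leaves, N among them. Only the member with the miR840 letters rose among these 11, from 8.55 ± 4.38 to 31.0 ± 7.1 RPM (log2 change 1.95, SE 0.44, edgeR adjusted p = 0.0082), with no overlap between the libraries of young and old leaves. With library sizes from all lengths its change was 0.66 and did not pass.

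The tables are made of runs within which entries stand in alphabetical order, 2583 of them in the first table, and the sources used here do not say what a run stands for. Of 89 runs with 50 or more entries, the median held 6.75% of entries of 22 nt. A pair of runs, next to each other, held far more: run 1 had 75 of 168 entries (44.6%) and run 2 had 83 of 222 (37.4%). In run 1, 63.3% of reads were of 22 nt, 18.0% of 21 nt and 18.4% of 24 nt, and in run 2 the percentages were 52.1, 28.1 and 17.8. Such a make-up differs from that of the whole tables, where 22 nt took 5.82% to 7.90% of 18 to 28 nt reads. The runs held 54 and 65 members and shared 5 of them, which is 9.26% of run 1 and 7.69% of run 2.
Run 1, most abundant member: atggacaatgaatcagaagcat
Run 2, most abundant member: aggccaataagttctctcgtca

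Members of both runs fell together with age. Of the 89 tested, 56 fell from young to old leaves by edgeR's quasi-likelihood test, 62.9% against 5.76% of all sequences and 9.27% of 22 nt members. By the same test 0 rose, against 13.4% of all sequences and 10.0% of 22 nt members. The log2 change was below 0 for all 89, so that 0 were higher at an unadjusted p under 0.05 as well. The median log2 change was -2.21. Summed over members, run 1 had 477, 421, 284, 208, 186, 152 and 123 RPM in set 1 and 350, 438, 232, 141, 126, 87.3 and 106 RPM in set 2. Run 2 had 867, 631, 370, 309, 273, 219 and 186 RPM in set 1 and 504, 656, 356, 201, 173, 99.8 and 139 RPM in set 2. All old libraries were below all young ones in both runs, while mature and old libraries overlapped. The most abundant member of run 2 was at 218 ± 73 RPM in young and 50.3 ± 15.4 RPM in old leaves (log2 change -2.13, SE 0.38, edgeR adjusted p = 0.0016). That of run 1 was at 124 ± 14 RPM in young and 50 ± 14.5 RPM in old leaves (log2 change -1.35, SE 0.34, edgeR adjusted p = 0.014). The number that fell dropped from 26 to 17, 17 and 16 in run 1 without set 1 day 28, set 2 day 8 and set 2 day 24, and from 34 to 21 and 19 in run 2 without set 1 day 28 and set 2 day 24. None of the members of these 2 runs was listed in both orientations, against 857 of all 3783 members. Some members of these runs overlap and share most of their bases, so they are not independent. The runs were also picked out after their content was seen, so their counts are a description.

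**Figure D4:**
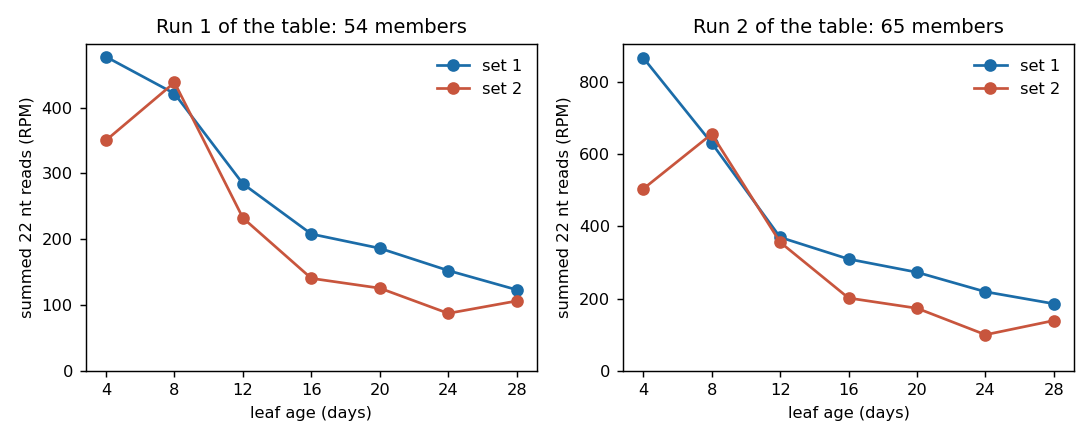
Points give the summed level of the 22 nt members (RPM) of the 2 runs of the first table richest in 22 nt entries, against leaf age in days, with set 1 in blue and set 2 in red. Run 1, with 54 members, starts at 477 and 350 RPM and ends at 123 and 106 RPM, and run 2, with 65 members, starts at 867 and 504 RPM and ends at 186 and 139 RPM.

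Calls differed in number between members listed in large and in smaller runs, which was not tested. The 2919 members listed in a run of 1000 or more entries held 49.5% of the 22 nt level. Of the 2571 of them that were tested, 10.1% rose and 5.29% fell from young to old leaves. Of 367 tested members whose largest run had at least 100 but under 1000 entries, 7.63% rose and 26.2% fell. This class is not separate from runs 1 and 2, which have 168 and 222 entries. Their 89 tested members, of which 56 fell, are counted in it unless also listed in a run of 1000 or more entries. Of 298 in runs under 100 entries, 12.4% rose and 22.8% fell. As a share of 18 to 28 nt reads, members of the largest runs took 3.02 ± 0.56% in young and 4.06 ± 0.51% in old leaves. Without sequence A, which was listed in a run of the middle class, those of middle runs took 0.447% and 0.332%, and those of small runs 0.89 ± 0.21% and 0.76 ± 0.13%.

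Members rarely stood alone. Of the 3783, 3300 (87.2%) had a relative of 21 nt that lacked only the first or last base, and 2967 (78.4%) had a relative of 23 nt. Another member shifted by 1 base was listed for 2706. Only 228 members, with 0.659% of the 22 nt level, had no such relative. Among those with a 21 nt relative, 664 (20.1%) had more reads than these relatives together, and 376 of the members with any relative (10.7%) exceeded both the 21 nt and the 23 nt ones. Members L, B and S had more abundant 21 nt relatives. For L, the relative without the last base of the U-lettered orientation, the microRNA itself in general knowledge, was at 3839 RPM in young and 1925 RPM in old leaves. For B the corresponding 21 nt sequence was at 87984 RPM in young and 123916 RPM in old leaves, and for S at 34927 and 4164 RPM.

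Base composition differed between risers and fallers. Members that rose from young to old leaves had a mean G and C content of 59.2 ± 13.0% (SD over 325 members), those that fell 47.2 ± 11.5% (300 members) and those not called 53.1 ± 12.1% (2611 members). Members listed in both orientations were 17.8% of the risers, 44.7% of the fallers and 20.4% of the rest. Over all members the mean was 52.7%, between 51.0% for 21 nt and 53.5% for 23 nt sequences, and it was 48.3% for 24 nt ones. The fallers include the 56 from runs 1 and 2, whose members had a median G and C content of 36.4%, and no riser came from these runs. How far these runs shape the difference was not tested. Overlapping members share bases and are not independent, so these values are a description.

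The genes that make small RNAs were measured in the total RNA of the same ages, without a test here. DCL2, whose enzyme makes 22 nt interfering RNAs, had 1.10 ± 0.28 FPKM in young, 2.39 ± 0.51 in mature and 3.79 ± 0.24 in old leaves (SD, n = 4), with no overlap between stages. DCL4 had 2.14 ± 0.49 FPKM in young and 4.63 ± 0.31 in old leaves, AGO1 15.6 ± 3.0 and 26.2 ± 6.1, and RDR6 4.29 ± 1.04 and 2.73 ± 1.62. DCL1 had 3.10 ± 0.23 FPKM in young and 5.30 ± 0.77 in old leaves. AGO2, an Argonaute of antiviral defence, had 1.91 ± 0.61 and 10.2 ± 1.5 FPKM, and DRB4, the partner of DCL4, 2.63 ± 1.52 and 15 ± 2.6 FPKM. DCL3 went the other way, with 0.864 ± 0.160 FPKM in young and 0.540 ± 0.135 in old leaves. Mean FPKM in young and old leaves were 1.59 and 1.25 for RDR2, 2.09 and 1.87 for HEN1, and 2.74 and 2.23 for HYL1. They were 2.51 and 4.22 for SGS3, 1.47 and 6.84 for AGO7, and 10.2 and 19.4 for SE. The level of DCL2 was higher in each old sample than in any young one. The same held for DCL1, DCL4, AGO1, AGO2, AGO7, SE and DRB4, so it was not particular to DCL2. AGO2, AGO7, SE and DRB4 also had no overlap between stages. How many of all genes behaved in this way is not given here. Whether the level of any 22 nt member or run depends on these genes was not tested.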

How the data were processed

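Small RNA counts per sequence were deposited by the authors as 1 table for each of the 2 sets, with 7 libraries each, and FPKM per gene as the authors' total RNA tables. Per the submitters' processing notes, TopHat 1.4.0, Cufflinks and TAIR10 were used; adapter removal, small RNA mapping and the rule for listing a sequence are not given in the sources used here. In each table every 22 nt sequence had at least 5 counts in 2 or more libraries.

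Repeated entries with the same counts were used once, repeats with differing counts were summed (15 and 17 sequences), and reverse complements were joined. Library sizes were the listed reads of 18 to 28 nt. edgeR 4.0.16 (R 4.3.3) was fitted to all 46841 sequences with at least 10 counts in 2 libraries, with day and set as terms and a threshold of 0.05 on the adjusted p. The script was tested on simulated data. Alternatives were TMM factors, DESeq2 1.42.0, other library sizes and filters, no set term, and each library left out in turn. Shares and ratios were compared by exact permutation over 70 arrangements. The series' design text gives the 2 sets as independent biological replicates, and each p-value rests on how much these libraries vary. Same-set deviations from the day means correlated by -0.19 to 0.44 over 21 pairs of days, above 0.1 in 13; the set term was kept as fixed. FPKM were not tested.

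Members and lists were chosen with earlier results of these data known. The text names the 15 members of highest mean level, and among members that passed with a mean of at least 10 RPM and the same direction in both sets, the 10 largest rises and falls from young to old and the 5 largest in each other comparison; members overlapping by 18 bases were joined. No mature microRNA table or genome was used, so U-lettered entries took the place of catalogue matches, a choice made after seeing the data, as were the runs. HST was among the genes to be described and was not used here, and the leaf marker RCA of that list is not described.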

Additional observations from a re-analysis of the deposited data

Results flagged for a closer look

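Of 126 stage groups of 4 libraries examined, 9 held a library far from the other 3, where chance flags about 1 in 20. Sequence M accounted for 3 of them. It had 2002 RPM at day 8 of set 1 against 17 to 54.6 RPM in the other young libraries, 5723 RPM at day 12 of set 1 against 18.6 to 146 RPM in the other mature ones, and 151 RPM at day 24 of set 2 against 24.4 to 28.5 RPM in the other old ones. Both high values were in set 1, and the other set had no like value at those ages.
M: tagtccactcagccatctctcc

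Sequence AD had 166 RPM at day 4 of set 1, and AJ had 43.0 RPM in the same library against 8.39 to 11.4 RPM in the other young ones. In old leaves, day 24 of set 1 was high for V, with 24.1 RPM against 14.8 to 15 RPM, and for AE, with 13.3 RPM against 3.80 to 5.11 RPM. Sequence Q had 2.30 RPM at day 4 of set 2 against 1.01 to 1.12 RPM in the other young libraries. Sequence A took 31.9% of 22 nt reads at day 16 of set 2, against 35.8% to 36.5% in the other mature libraries.

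The U-lettered entries of 22 nt, which were not members, summed to a mean of 861 RPM over the libraries, between 484 and 1099 RPM. Their counts were not the same as those of the identical members. For N the member had 0.868 of the reads of the U-lettered entry in young, 0.804 in mature and 0.607 in old leaves, and for the miR393 letters 0.903, 0.761 and 0.547. For the miR173 letters the fraction was 0.982, 0.982 and 0.983. The sources used here do not say what was counted for each kind of entry. Sequences of 22 nt listed in only 1 table, 340 and 1064 in number, held a mean of 0.909% of a library's 22 nt reads.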

How the results depend on the processing

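With no replicate block, 7 members instead of 13 were lower in mature than in young leaves and 45 instead of 114 lower in old than in mature leaves, while 292 rose and 214 fell from young to old; 5 named calls were lost, among them that of L. With the permutation kept within sets (replicate block), the share's adjusted p was 0.1, and 0.0556 is the smallest p those 36 arrangements allow.

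With library sizes from all lengths, 149 members were higher and 1744 lower in old than young leaves, 35 higher in mature than young, 52 higher and 1319 lower in old than mature, and 395 changed over the days; in runs 1 and 2, 41 and 53 fell, and of U-lettered matches 28 fell and 2 rose. B, H and J turned to -0.23, -1.14 and -1.15, of which H and J passed as falls (adjusted p = 0.0261 and 0.0404). TMM gave 472 lower in old than young, with H and J at -0.10 and -0.059. DESeq2 gave 524 lower in old and 38 lower in mature than young, with H and J at -0.13 and -0.094. Requiring 50 counts in 2 libraries left 141 higher and 107 lower (old against young), 86 and 67 (old against mature), 144 over days, 7 and 10 in the runs, and 9 lower and 1 higher among U-lettered matches. Fewer members were tested in that setting, and why the counts were lower was not tested. Fitting 18 to 28 nt alone gave 93 higher and 48 lower in mature than young, 193 lower in old than mature, and 467 over days; the cause was not tested.

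Counting both orientations as listed gave shares lower by -1.89 (old against young) and -1.48 (old against mature) and log2 ratios to 21 nt of -0.63, -0.11 and -0.52, the middle one for mature against young, which turned, and to 24 nt of -0.85 and -0.58; all but -0.11 then passed (adjusted p = 0.0429), with members listed in both orientations, such as sequence A, counted for each. Without sequence A, share differences were 0.69, 0.41 and 0.28 for old against young, mature against young and old against mature; the ratio to 21 nt was 0.26 and 0.068 for the comparisons with old leaves; effective numbers were 447, 439 and 360; and the 10 most abundant took 31.8% in young, 30.3% in mature and 32.6% in old leaves.

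Leaving out 1 library at a time gave 231 to 340 higher and 156 to 280 lower in old than young, 14 to 59 and 0 to 21 in mature than young, 33 to 196 and 8 to 132 in old than mature, and 122 to 252 over days. In run 1, 16 to 25 fell, in run 2, 19 to 34, and of U-lettered matches 8 to 16 fell and 3 to 7 rose. The ratio to 21 nt, mature against young, ranged from -0.033 to 0.075. Old against young, J ranged from -0.064 to 0.49 and M from -2.98 to 1.00, the last without set 1 day 8.

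Library sizes without sequence A gave 322 higher and 315 lower in old than young; this setting, and the leaving out of libraries for diversity, were chosen after seeing the data. The members of lowest level, 547 under the count filter, were not tested. Depth fell with age, so low members were seen less well in old leaves. PCR duplicates could not be recognised, and intervals are not given for single libraries.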

Other observations

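Of 6 further members that match a U-lettered entry, described here, some rose and some fell, and all but that with the miR403 letters averaged below 10 RPM. The member with the miR827 letters and 1 extra 5′ base, of a family known for its response to phosphate supply, rose from 0.839 ± 0.379 to 12.1 ± 9.0 RPM between young and old leaves (log2 change 3.58, SE 0.55, edgeR adjusted p = 0.00065). That with the miR398 letters and 1 extra 5′ base rose from 0.785 ± 0.894 to 4.51 ± 1.15 RPM (log2 change 3.09, edgeR adjusted p = 0.0037). Both were named after their values were seen. A member with the miR319 letters and 1 extra 5′ base, of a family that acts on TCP growth regulators, was at 7.65 ± 1.10 RPM in young and 0.737 ± 1.47 RPM in old leaves (edgeR adjusted p = 0.0034). A pair of members that extend the miR169 letters by 1 base at the 3′ end had 7.33 ± 11.1 and 3.64 ± 2.84 RPM in young leaves and no read in any old library. The member with the miR403 letters and 1 extra 3′ base, whose family targets AGO2, was at 430 ± 63 and 324 ± 64 RPM in young and old leaves and did not pass (edgeR adjusted p = 0.45).
miR827 with 1 more base: tTTAGATGACCATCAACAAACT
miR398 with 1 more base: aTGTGTTCTCAGGTCACCCCTG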
